A study of Mus musculus with 4 samples.

Results

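The mouse genes with symbols from Zfp700 to Zfp999 are a numbered series of zinc-finger protein genes, and those lying outside chromosome 2 were followed here. They were taken as every deposited gene whose Ensembl identifier matches, in GENCODE M21, a protein-coding gene with such a symbol on any chromosome but 2. The rule found 115 genes among 34866 deposited identifiers, on 16 chromosomes, and it used no measured value. The cells were stem and progenitor cells from the dorsal telencephalon of wild-type mouse embryos at E11.5, grown for 5 days as neurospheres, which are free-floating spheres of dividing cells, with basic fibroblast growth factor. All cells were infected with lentivirus when plated. The shControl group received 1 vector (CS-EG backbone) with a control short hairpin RNA at a multiplicity of infection of 30. The triple knockdown group received 3 vectors together, shPhf21b (pCS-EG), shZfp7 (pLV-EG) and shZfp57 (pLV-EG), at 10 each. Virus and culture were thus shared by both groups, while the number of vectors and the backbone differed between them along with the hairpins. Each group had 2 libraries under one batch label, and the labels do not say whether these came from separate litters or cultures, so p-values measure only the spread between these libraries.

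Most genes with these symbols encode proteins built from a row of C2H2 zinc fingers, each finger a short fold held by zinc that reads a few bases of DNA. Many also carry a KRAB domain, which binds the corepressor Trim28, and Trim28 in turn brings the histone methyltransferase Setdb1 and heterochromatin proteins to the bound site. KRAB zinc-finger genes arose by repeated local duplication, lie in clusters, and are best known for silencing endogenous retroviruses and for keeping imprints. Zfp57, one of the genes targeted in these cells, is a KRAB zinc-finger protein that protects imprinted regions. It is not among the 115 by its number.

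The deposited totals were between 14694387 and 20779211 estimated counts per library. Levels are given below as CPM, counts per 1000000 of the library after scaling by the trimmed mean of M-values (TMM). The hairpin targets measured lower on average in the triple knockdown libraries without passing the test: Zfp57 was at 14.6 and 11.8 CPM in the shControl libraries against 10.7 and 9.32 CPM in the triple knockdown libraries (log2 fold change -0.40, edgeR adjusted p = 0.341). Phf21b was at 7.25 and 7.36 against 5.49 and 6.45 CPM, and Zfp7 at 1.67 and 2.25 against 1.97 and 0.977 CPM. All 12 neural progenitor markers were tested and 0 passed, at summed levels between 20688 and 28124 CPM. Of 8 neuron markers 3 were called lower, with sums of 885 and 793 CPM in the shControl libraries against 638 and 639 CPM in the triple knockdown libraries. Of 7 red blood cell markers, of which 3 were tested, 1 was called higher, with sums of 23.7 and 25.7 against 37.8 and 35.4 CPM. The 10 microglia and myeloid markers summed to between 15.7 and 23.5 CPM. Of 5 pluripotency markers 2 were tested and 0 called, with sums of 1.53 and 3.16 against 3.52 and 3.06 CPM. Among these 5, Pou5f1 had at most 1 count in a library, while Klf4 had between 24.1 and 49.4. In these bulk libraries fewer cells of a type and less RNA per cell cannot be told apart, and the part of the neuron and red blood cell values in the zinc-finger gene values below was not tested.

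The 115 genes were not scattered evenly. Taking a cluster as at least 3 of them on a chromosome with starts no more than 1000000 bases apart, 80 lay in 13 clusters and 35 were dispersed. The largest clusters held 16 genes on distal chromosome 4 (chr4:145510759-147848366, GRCm38) and 13 genes on chromosome 17 (chr17:21567008-22867134). Where a chromosome holds several clusters they are lettered in order along it, so that this one is cluster 17a. A RefSeq promoter window existed for 98 of the 115 genes, with 116 windows in all, of which the 250 bases before the start were searched on both strands. The letters CCAATCA, an extended CCAAT box of the kind read by the factor NF-Y, stood in 31.9% of these windows, against 7.23% of 32851 windows of all genes. The shorter CCAAT, which CCAATCA contains, stood in 62.1% against 33.8%. These motifs were picked after the sequences had been looked at, so the shares are descriptions. CCAATCA was present in 5 of 5 genes with a window in the chromosome 8 cluster near Zfp868 (8a) and in 3 of 3 in the chromosome 10 cluster around Zfp938, against 1 of 13 in the large chromosome 17 cluster and 0 of 6 in the chromosome 13 cluster of Zfp953 (13b). The bases after the start were found in the gene's GENCODE transcripts for 98 of the 116 windows. They were not found for Zfp869 in 8a and Zfp781 in the chromosome 10 cluster, both counted here as holding the box. The windows of Zfp963 at chr8:69749963-69750212 (minus strand) and of Zfp868 at chr8:69625549-69625798 (minus strand), both in the chromosome 8 cluster, and of Zfp938 at chr10:82241281-82241530 (minus strand) show the box, in capitals, from RefSeq on GRCm38.p6 and read 5′ to 3′. Zfp963 had the smallest p-value of the 115 genes, and Zfp868 and Zfp938 were among the 10 most abundant.
Zfp963: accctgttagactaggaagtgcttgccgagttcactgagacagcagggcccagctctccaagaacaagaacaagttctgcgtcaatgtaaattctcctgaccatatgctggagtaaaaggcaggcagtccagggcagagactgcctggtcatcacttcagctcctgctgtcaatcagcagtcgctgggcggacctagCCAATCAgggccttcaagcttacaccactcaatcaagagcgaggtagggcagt
Zfp868: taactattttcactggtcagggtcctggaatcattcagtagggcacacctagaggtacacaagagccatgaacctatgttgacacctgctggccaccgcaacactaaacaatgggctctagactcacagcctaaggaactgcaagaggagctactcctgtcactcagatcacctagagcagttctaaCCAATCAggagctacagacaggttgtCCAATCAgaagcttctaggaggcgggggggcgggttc
Zfp938: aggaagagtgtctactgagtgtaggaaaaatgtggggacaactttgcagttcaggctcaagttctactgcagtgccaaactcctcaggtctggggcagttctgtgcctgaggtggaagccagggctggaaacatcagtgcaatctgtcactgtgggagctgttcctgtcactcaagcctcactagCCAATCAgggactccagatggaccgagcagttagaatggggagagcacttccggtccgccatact

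The letters TGCCGC, the sequence that Zfp57 binds when it is methylated, stood in 4.31% of the windows of these genes against 8.68% of all windows. They occurred in 5 genes, Zfp746, Zfp866, Zfp827, Zfp839 and Zfp763. Zfp839 had the largest log2 fold change in either direction, and its window at chr12:110850029-110850278 (plus strand) is shown with the motif, on the opposite strand, in capitals. The window of Zfp953 at chr13:67360573-67360822 (minus strand), the gene with the smallest p-value among those measuring higher, held neither TGCCGC nor CCAATCA and is in lower case throughout.
Zfp839: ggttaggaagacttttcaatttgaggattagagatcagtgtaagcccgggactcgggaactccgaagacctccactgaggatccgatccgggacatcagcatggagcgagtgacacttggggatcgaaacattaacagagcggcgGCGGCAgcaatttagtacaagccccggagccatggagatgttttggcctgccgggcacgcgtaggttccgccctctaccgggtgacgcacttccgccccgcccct
Zfp953: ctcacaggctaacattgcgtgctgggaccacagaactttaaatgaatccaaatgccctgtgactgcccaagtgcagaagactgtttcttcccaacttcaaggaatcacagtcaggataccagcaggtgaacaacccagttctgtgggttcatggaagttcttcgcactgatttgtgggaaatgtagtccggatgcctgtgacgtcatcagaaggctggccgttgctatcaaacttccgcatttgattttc
The 5 genes with TGCCGC had a median log2 fold change of -0.06 against -0.04 for the 81 tested genes with a window lacking it. The 27 tested genes with CCAATCA had a median of 0.09, and the 59 without it had -0.08. The box was unevenly spread over the clusters, as given above, so box and cluster cannot be told apart in these medians. A match is a stretch of letters and not a measured binding site, and the deposited data hold no binding measurement.

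Most of these genes were transcribed at low levels in the neurospheres. The mean over the 4 libraries reached 1 CPM for 90 of the 115 genes and 10 CPM for 20. The 98 genes with enough counts to be tested had a median of 4.59 CPM, with a range from 0.539 to 146 CPM. Set per kilobase of exon, which allows genes to be compared, Zfp706 was the most abundant at 29.3 CPM per kilobase, followed by Zfp938 at 24.6 and Zfp825 at 10.5. Zfp706 encodes a short protein with 1 finger that has been linked to the exit of embryonic stem cells from self-renewal. Its level was 156 and 148 CPM in the shControl libraries and 137 and 142 CPM in the triple knockdown libraries (log2 fold change -0.12 ± 0.13 SE). Zfp938, a KRAB gene with 10 fingers, was at 52.3 and 57.5 CPM against 46.4 and 53.2 CPM (log2 fold change -0.14 ± 0.14 SE). The groups overlapped for Zfp938, whereas for Zfp706 both triple knockdown values lay below both shControl values by less than the fit could separate (edgeR adjusted p = 0.801).

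The next levels were closer together. Zfp958 stood at 9.20, Zfp932 at 9.12, Zfp993 at 7.53, Zfp830 at 4.68, Zfp946 at 4.65, Zfp868 at 4.58 and Zfp771 at 4.49 CPM per kilobase. The last 4 differed by less than their spread over libraries. Zfp932 is a KRAB-type repressor of endogenous retroviruses with a close relative in Gm15446, and 48.3% of its 31-base stretches recur in another gene, so part of its level could belong to that copy. For Zfp993 the shared part was 91.9%, mostly with Zfp991, and for Zfp825 it was 48.3%. The levels of these genes are therefore uncertain in the way the counting divided shared reads.

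**Figure D1:**
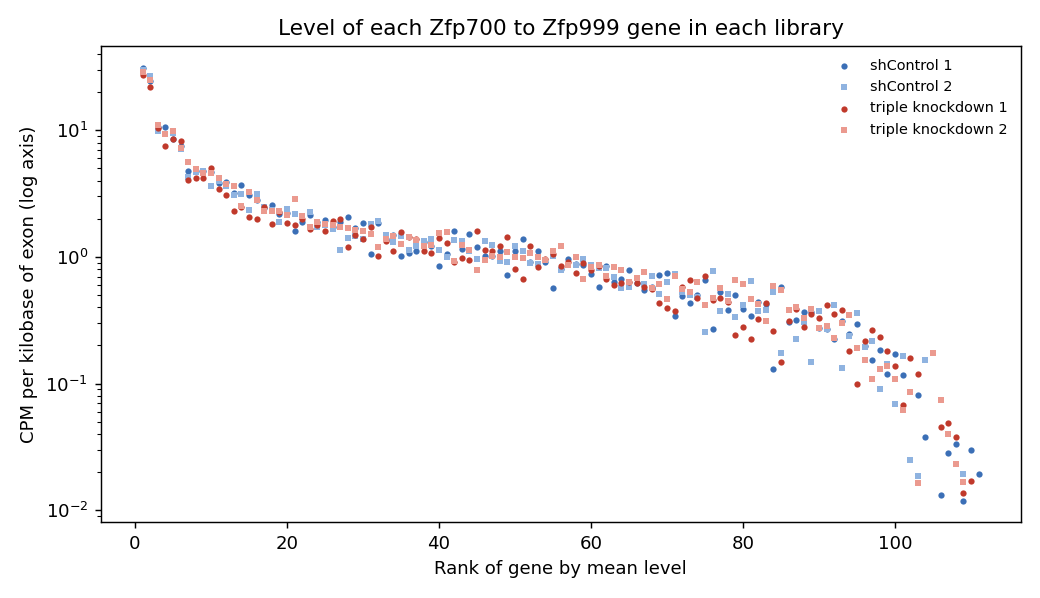
Level of each zinc-finger gene in each of the 4 libraries, in CPM per kilobase of exon on a log axis, with genes ordered by their mean and values of 0 not drawn. Zfp706 and Zfp938 stand above the rest with means of 29.3 and 24.6, and the means of 52 of the 115 genes exceed 1 CPM per kilobase.

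The other end of the range held 17 genes with too few counts to test, 8 of them in the chromosome 4 cluster. Zfp750, a regulator of epidermal differentiation, and Zfp978 had 0 counts in all 4 libraries, which allows a level of up to 0.139 to 0.225 CPM by library. For Zfp978 85.5% of the 31-base stretches recur in another gene, so reads may have been assigned there and its level may exceed this limit. Such limits and the other intervals for low counts cover counting error only. Zfp819, a KRAB gene known from pluripotent cells, had 2 and 5 counts in the shControl libraries and 0 in both triple knockdown libraries. Zfp982, from the chromosome 4 cluster, had 4 counts in triple knockdown replicate 2 and 0 elsewhere. Zfp872, a KRAB gene of the chromosome 9 cluster singled out after its values were seen, had 0 and 1 counts with the control hairpin against 9.03 and 4.06 in the triple knockdown. When the filter on low counts was dropped, 13 of the 17 genes could be fitted and 0 were called. Of these 13 genes 2 had an unadjusted p under 0.05 in edgeR, against 8.78% of all genes in that fit. They were Zfp819 (edgeR adjusted p = 0.547) and Zfp872 (edgeR adjusted p = 0.437). The groups did not overlap in these 2 genes, but each rests on few counts. Zfp935 was listed near 0, but 100% of its 31-base stretches recur in Gm49359, and reads from it may have been assigned there.

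In the comparison of triple knockdown with shControl, 0 of the 98 tested genes passed edgeR's quasi-likelihood test at an adjusted p under 0.05, with 0 higher and 0 lower. Over all 14050 genes tested 1.37% passed, 0.541% as higher and 0.826% as lower. At an unadjusted p under 0.05 there were 8 of the 98 genes, or 8.16%, against 12% of all genes tested. Limma-voom called 0 of the 98 genes (1.36% of all it tested), with 9 at an unadjusted p under 0.05. DESeq2, run on 111 of the 115 genes, called 0 (0.249% of all it tested), with 1 at an unadjusted p under 0.05. For limma-voom and DESeq2 the share of all genes at that unadjusted p was not computed. The smallest edgeR adjusted p among the 98 was 0.191. Libraries of the groups did not overlap for 33 genes, 15 higher and 18 lower in the triple knockdown, which is 33.7% against 41.3% of all genes tested. The edgeR shares and the share not overlapping were below those of all genes.

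The log2 fold changes of the 98 genes centred near 0. Their median was -0.03, with quartiles of -0.15 and 0.16, and 47 lay above 0 and 51 below. The median over all genes tested was -0.01. With scaling by library size alone both were above 0, at 0.05 and 0.07, so neither has a settled sign. DESeq2, run without the filter on low counts, gave 0.003 over 111 of the 115 genes and 0.03 over 22122 genes. Its sets of genes thus differ from those above as well as its method. The median size of the change, whatever its sign, was 0.159 on the log2 scale against 0.199 over all genes tested. The change was under 0.5 in size for 89 genes and at least 1 for 1 gene, Zfp839. Replicates of a group differed by a median of 0.204 on the log2 scale for shControl and 0.252 for the triple knockdown. These values compare single libraries and are not on the scale of a difference between group means.

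A count of 0 does not show that the genes were equal in the groups. The standard error of a log2 fold change had a median of 0.25 and ran from 0.13 to 0.70. The 95% interval of the fold change lay wholly within 2-fold in either direction for 74 of the 98 genes, and within 1.5-fold for 31. For the remaining 24 genes a 2-fold difference was not excluded in at least 1 direction.

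**Figure D2:**
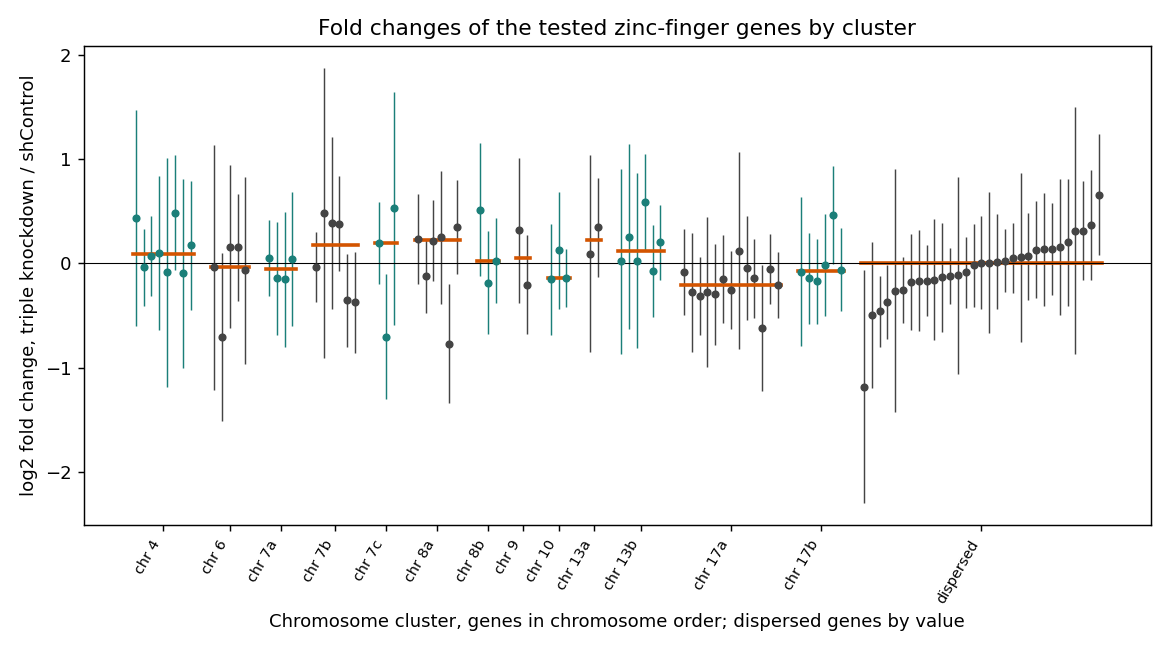
Log2 fold change of triple knockdown over shControl for each tested zinc-finger gene, grouped by chromosome cluster with the dispersed genes apart, whiskers for the 95% interval and a bar at each median. In cluster 17a 12 of 13 points lie below 0.

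Of the 8 genes with an unadjusted p under 0.05, 6 measured lower in the triple knockdown. Genes picked by a small p-value tend to have groups that stand apart, so separation in these 8 adds no support. Zfp963, a gene with 7 fingers at chr8:69741639-69749970, was at 4.23 and 4.43 CPM in the shControl libraries and at 2.35 and 2.74 CPM in the triple knockdown libraries (log2 fold change -0.77 ± 0.29 SE, adjusted p = 0.191 in edgeR). Both triple knockdown libraries were low and the groups were apart. Of its exonic bases 40.8% overlap Gm20422, and 39.7% of its 31-base stretches recur there, so reads of the pair may have been divided between them. Zfp740, which has 2 fingers and lies at chr15:102203249-102215606, was at 18.8 and 16.1 CPM against 12.6 and 12.8 CPM (log2 fold change -0.46 ± 0.17 SE, adjusted p = 0.196 in edgeR). Zfp740 was the deepest of the 6 together with Zfp821, which measured 14.2 and 15.0 CPM against 11.1 and 11.53 CPM (log2 fold change -0.37 ± 0.18 SE, adjusted p = 0.383 in edgeR). In both genes the triple knockdown libraries lay close to each other and below both shControl libraries.

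The remaining genes of the 6 had few counts. Zfp768, with 10 fingers and no stretch shared with another gene, was at 4.04 and 3.46 CPM against 2.29 and 2.35 CPM (log2 fold change -0.70 ± 0.30 SE, adjusted p = 0.299 in edgeR). Zfp758, a KRAB gene of the large chromosome 17 cluster, was at 4.09 and 3.31 CPM against 1.97 and 2.93 CPM (log2 fold change -0.62 ± 0.30 SE, adjusted p = 0.400 in edgeR). The groups were apart in each, with triple knockdown replicate 1 the lowest library. Zfp839, in whose protein the finger pattern was not found, was at 1.11 and 1.35 CPM against 0.373 and 0.717 CPM, from 24, 18.2, 7.25 and 10.6 counts (log2 fold change -1.18 ± 0.56 SE, adjusted p = 0.375 in edgeR). Its triple knockdown level was 44.1% of control, with a 95% interval from 20.3% to 95.7%, so its size was poorly fixed at this depth.

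The other genes of the 8 measured higher. Zfp953, a KRAB gene with 8 fingers in the chromosome 13 cluster at chr13:67339306-67360605, was at 3.99 and 5.26 CPM in the shControl libraries and at 6.61 and 7.17 CPM in the triple knockdown libraries (log2 fold change 0.59 ± 0.23 SE, adjusted p = 0.223 in edgeR). Zfp957, a dispersed gene on chromosome 14, was at 2.32 and 2.93 CPM against 4.64 and 3.52 CPM (log2 fold change 0.66 ± 0.29 SE, adjusted p = 0.314 in edgeR). Both triple knockdown libraries were the higher ones in each gene. Below this level of evidence, Zfp952 was at 4.598 and 4.36 CPM against 5.60 and 6.84 CPM, and Zfp979 at 2.32 and 4.21 CPM against 4.32 and 4.56 CPM. The log2 fold changes were 0.51 for Zfp709, 0.49 for Zfp979, 0.46 for Zfp952 and 0.39 for Zfp976, and on the lower side -0.71 for Zfp956 and -0.49 for Zfp850.

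**Figure D3:**
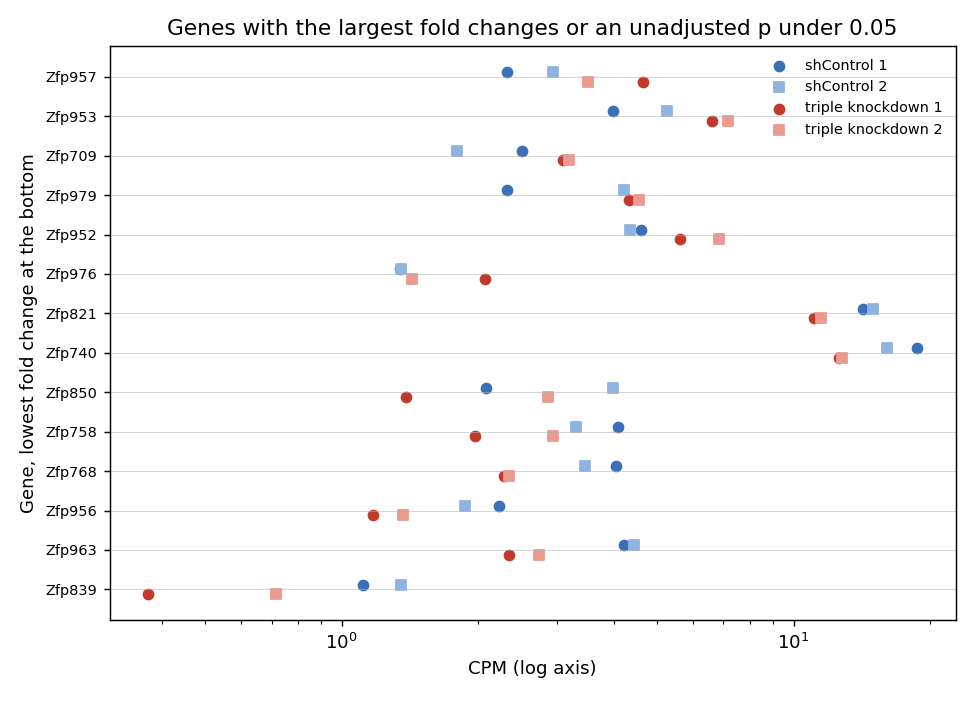
CPM in each of the 4 libraries, on a log axis, for the genes with the largest fold changes or an unadjusted p under 0.05, circles for replicate 1 and squares for replicate 2. Zfp963, Zfp740, Zfp768, Zfp821, Zfp758 and Zfp839 have both triple knockdown points below both shControl points, and Zfp953 and Zfp957 have them above. The choice of genes by p-value or fold change favours such separation.

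One library decided whether any of these genes passed. Without shControl replicate 2, edgeR called Zfp738 (log2 fold change 0.63) and Zfp953 (0.79) as higher and Zfp740 (-0.55) as lower. That fit had a single shControl library, so its p-values measured no spread between shControl libraries and are not given. Calls over all genes tested also became more frequent in it. Zfp738, a KRAB gene with 20 fingers in the same chromosome 13 cluster as Zfp953, was at 16.0 and 27.3 CPM in the shControl libraries and at 26.2 and 22.9 CPM in the triple knockdown libraries. The library left out was the highest of the 4 for Zfp738, and with it the groups overlapped (log2 fold change 0.20 ± 0.18 SE).

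The chromosome 4 cluster is one of the youngest expansions of KRAB genes in the mouse, and its deletion is known to raise the expression of some retrotransposons. Of its 16 genes 15 held the KRAB pattern, and 8 were tested, with 0 called and a median log2 fold change of 0.09. Zfp992 was at 11.1 and 11.2 CPM in the shControl libraries and at 11.2 and 10.5 CPM in the triple knockdown libraries (log2 fold change -0.04 ± 0.18 SE). Zfp993 was at 9.61 and 9.09 CPM against 10.4 and 9.25 CPM (log2 fold change 0.07 ± 0.19 SE). Only these 2 genes of the cluster exceeded 5 CPM on average. Their library values lay within a narrow band, but 10 of the 16 genes shared over 50% of their 31-base stretches with another gene, and the median shared part was 74.1%. Several main partners, among them Zfp600, Rex2 and Gm8935, are not among the 115 genes, so a sum over the cluster does not recover reads divided with them. The 16 genes, tested or not, summed to 31.2 and 33.4 CPM against 34.8 and 34.1 CPM.

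**Figure D4:**
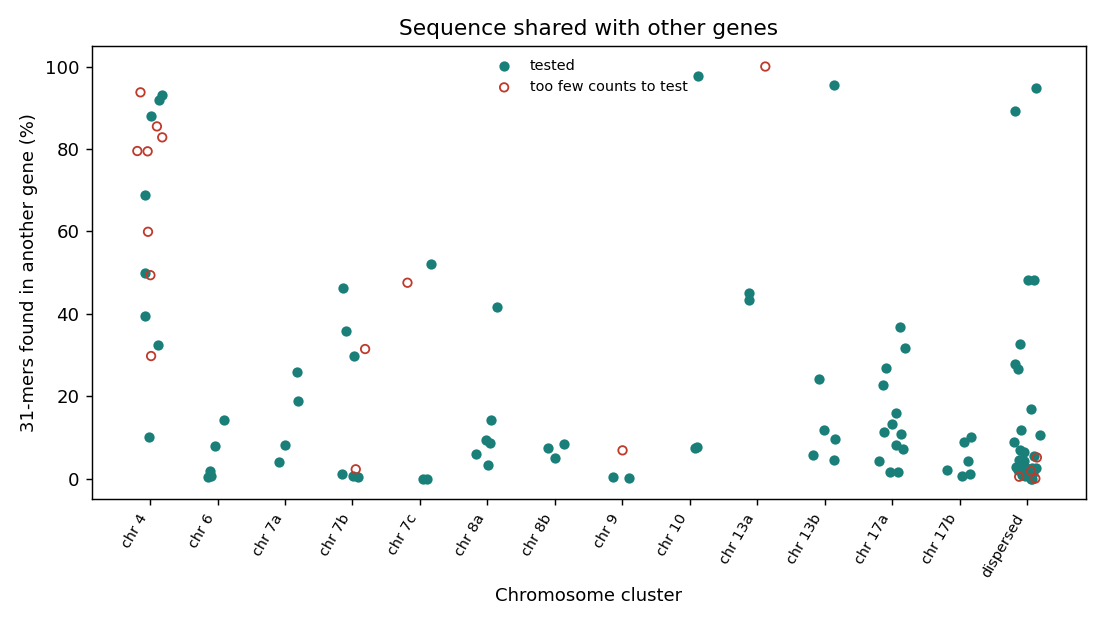
Share of each gene's 31-base stretches that recur in another gene, in percent, by chromosome cluster, filled where the gene was tested and open where its counts were too few. The chromosome 4 cluster has the most genes above 50%, with 10 of 16, and the median over all 115 genes is 8.62%.

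Over all 115 genes the median shared part was 8.62%, against 1.87% for protein-coding genes in general. It exceeded 50% for 16 genes, or 13.9%, against 9.56% of protein-coding genes, and lay under 5% for 42. Besides the chromosome 4 genes, Zfp708 shared 95.6%, mostly with Gm28557, which overlaps it. Zfp708 is known to bind a class of long terminal repeats, and it was at 1.72 and 0.676 CPM in the shControl libraries and 1.87 and 1.11 CPM in the triple knockdown libraries.

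In the large chromosome 17 cluster (17a) most genes measured lower in the triple knockdown, by an amount that depended on which libraries were kept. All 13 of its genes were tested, 0 were called, and 12 had a log2 fold change below 0, with a median of -0.21, or -0.12 with scaling by library size alone. The groups were apart for 5 of the 13, all lower, which is 38.5% against 41.3% of all genes tested. Summed over the cluster the levels were 113.6 and 108.9 CPM in the shControl libraries and 86.5 and 109.6 CPM in the triple knockdown libraries. The low value belonged to triple knockdown replicate 1, in which 12 of the 13 genes lay below both shControl libraries, whereas replicate 2 did so for 5. The share of all genes tested below both shControl libraries was not computed for either library. Without triple knockdown replicate 1 the median was -0.05, without replicate 2 it was -0.43, and without shControl replicate 1 it was -0.06.

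Within this cluster Zfp945, with 18 fingers, had the highest CPM, and Zfp946 the highest level per kilobase of exon, at 4.65 against 2.16 for Zfp945. It was at 22.7 and 24.4 CPM in the shControl libraries and at 18.8 and 21.95 CPM in the triple knockdown libraries (log2 fold change -0.21 ± 0.16 SE, adjusted p = 0.659 in edgeR). Zfp946 was at 16.8 and 16.4 CPM against 14.6 and 17.4 CPM (log2 fold change -0.06 ± 0.17 SE). Only the first triple knockdown library was low in Zfp946, and the groups overlapped. The next cluster, 17b at chr17:32765496-33033402, with 6 tested genes, summed to 37.3 and 34.9 CPM against 31.9 and 39.9 CPM and had a median of -0.07 (0.0069 with scaling by library size alone). Its most abundant gene, Zfp763, was at 11.0 and 8.34 CPM against 7.30 and 11.53 CPM.

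**Figure D5:**
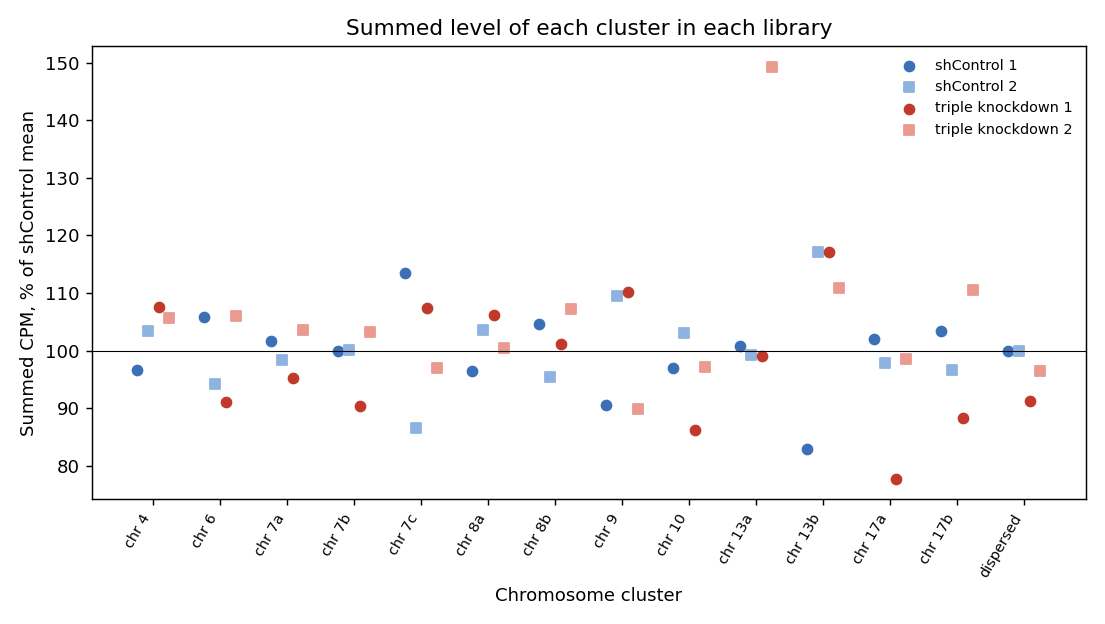
Summed CPM of all genes of each cluster, tested or not, in each library, as a percent of the mean of both shControl libraries. Triple knockdown replicate 1 is at 77.8% in cluster 17a, where replicate 2 is at 98.6%.

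The same library was low over the genes as a whole, to a lesser degree. The 115 genes, tested or not, summed to 797 and 806 CPM in the shControl libraries and to 739 and 800 CPM in the triple knockdown libraries. Triple knockdown replicate 1 lay below both shControl libraries for 44 of the 98 genes and replicate 2 for 25. Replicate 1 was the lower of the pair for 69 of the 98 genes. The same counts over all genes tested were not made, so whether this library was lower for other genes too was not tested. An exact permutation test of 2 libraries against 2 cannot give a two-sided p below 0.33, so no test of these sums was made.

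Cluster 8a at chr8:69209038-69791178 held genes that differed in direction. Its 6 genes were all tested and had a median log2 fold change of 0.23, with 4 above 0 and 2 below. Zfp868, the most abundant, was at 13.9 and 13.7 CPM in the shControl libraries and 12.2 and 13.2 CPM in the triple knockdown libraries (log2 fold change -0.13 ± 0.18 SE). Zfp963, described above, was the other gene below 0, while its neighbour Zfp866 was at 5.06 and 5.03 CPM against 6.82 and 5.99 CPM. The cluster's sum was 39.7 and 42.6 CPM against 43.7 and 41.3 CPM, within the spread of the libraries. The smaller cluster 8b at chr8:71882019-71993792 had 3 tested genes with a median of 0.03, and its most abundant gene Zfp961 was at 8.13 and 7.44 CPM against 7.78 and 8.14 CPM.

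Both chromosome 13 clusters measured somewhat higher in sum, with overlap. Cluster 13b at chr13:67038596-67687071, which adjoins genes that regulate sex-biased liver expression, had 6 tested genes, of which 5 lay above 0, and a median log2 fold change of 0.11. It summed to 30.6 and 43.1 CPM in the shControl libraries and to 43.2 and 40.8 CPM in the triple knockdown libraries. The shControl libraries of this cluster differed by more than the groups did. Cluster 13a at chr13:62129886-62571199 had 2 tested genes with a median of 0.22, and its Zfp934 was at 4.64 and 4.58 CPM against 4.85 and 6.97 CPM (log2 fold change 0.35 ± 0.24 SE).

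On chromosome 7 the clusters had medians of -0.05 over 4 tested genes (7a, chr7:6131491-7209998), 0.17 over 6 (7b, chr7:41633203-43618285) and 0.19 over 3 (7c, chr7:127244274-127406822). The signs of these medians are not settled. That of 7b was -0.032 with the 1 CPM filter, -0.085 when shControl replicate 1 was left out and -0.19 when triple knockdown replicate 2 was, and that of 7c was -0.25 with the 1 CPM filter and -0.24 without genes sharing over 50% of their 31-base stretches. Their most abundant genes were Zfp787, Zfp788 and Zfp771. Zfp787 was at 10.4 and 11.2 CPM in the shControl libraries and at 10.9 and 11.4 CPM in the triple knockdown libraries. Zfp788, with 23 fingers, was at 16.7 and 17.2 CPM against 15.0 and 18.1 CPM, and Zfp771 at 9.48 and 7.29 CPM against 10.1 and 9.19 CPM. Groups overlapped in all 3 genes. The 3 genes of the chromosome 10 cluster (chr10:81901911-82241280) had a median of -0.14, the 5 of chromosome 6 (chr6:47819266-48623227) -0.04, the 2 tested genes of chromosome 9 (chr9:22188090-22307648) 0.06, and the 31 tested dispersed genes 0.01. Scaling by library size alone turned the medians of clusters 7a and 6 to 0.02, and DESeq2 (0.005) and limma-voom (0.04) also put that of chromosome 6 above 0. In the chromosome 9 cluster Zfp810 was at 5.25 and 5.93 CPM against 5.49 and 4.10 CPM.

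Several of the genes have known roles. Zfp809 recognises the primer-binding site of murine leukaemia viruses and recruits Trim28 to silence them. It was at 1.72 and 2.40 CPM in the shControl libraries and at 2.51 and 2.54 CPM in the triple knockdown libraries (log2 fold change 0.32 ± 0.35 SE, adjusted p = 0.799 in edgeR). Zfp711, an X-linked relative of Zfx whose human counterpart is mutated in intellectual disability, was at 9.34 and 8.04 CPM against 8.21 and 9.06 CPM (log2 fold change -0.02 ± 0.20 SE). Zfp746, also called Paris, is a substrate of the ubiquitin ligase parkin, and was at 3.99 and 3.91 CPM against 3.78 and 5.08 CPM. In all 3 genes the group difference was smaller than its standard error.

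Zfp830, which is needed in early embryos and acts in RNA splicing, was at 7.62 and 6.84 CPM in the shControl libraries and at 6.45 and 8.86 CPM in the triple knockdown libraries. Zfp827, which recruits the NuRD complex to telomeres, was at 5.20 and 6.31 CPM against 5.01 and 5.08 CPM (log2 fold change -0.18 ± 0.23 SE). Zfp703, a corepressor without the classical finger pattern, was at 1.16 and 2.48 CPM against 1.28 and 2.41 CPM. Zfp704 was at 15.4 and 20.4 CPM against 17.2 and 14.4 CPM, with 16.6% of its exonic bases overlapping an antisense gene. Replicates of Zfp703 and Zfp704 differed by as much as the groups did or more.

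Seen by protein features, 62 of the 115 genes encoded a KRAB A-box pattern and 53 did not. The pattern is strict, and known KRAB genes with other letters are missed by it. Of the 62 genes 51 lay in clusters, and of the 53 without the pattern 29. The number of fingers had a median of 11 and reached 23, with 70 genes holding at least 10 and 6 genes none by the pattern. The median log2 fold change was -0.04 over 49 tested genes with the pattern and 0.03 over 49 without. Of the genes at an unadjusted p under 0.05, 2 had the pattern, Zfp953 and Zfp758, and 6 lacked it. No test of the difference was made.

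Partners of KRAB proteins did not pass either. Of a list of 34 corepressor genes, 33 had a row and 32 were tested, and edgeR called 0 higher and 0 lower, with a median log2 fold change of -0.06. Trim28 was at 43.4 and 41.2 CPM in the shControl libraries and at 46.3 and 46.1 CPM in the triple knockdown libraries (log2 fold change 0.12 ± 0.14 SE, adjusted p = 0.803 in edgeR). Atrx, a chromatin remodeller that deposits histone variant H3.3 at repeats, was at 39.3 and 49.5 CPM against 30.5 and 38.4 CPM (log2 fold change -0.36 ± 0.15 SE, adjusted p = 0.253 in edgeR). Smarcad1 went the other way, at 32.5 and 37.3 CPM against 40.7 and 44.4 CPM (log2 fold change 0.29 ± 0.14 SE, adjusted p = 0.405 in edgeR). Atrx and Smarcad1 had the smallest p-values of the tested partners, so they do not stand for the list.

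The same fit gave values for other genes numbered as zinc-finger proteins. Among the protein-coding genes Zfp1 to Zfp699, 237 in all, 216 were tested and 0 were called, with a median log2 fold change of -0.07. At an unadjusted p under 0.05 in edgeR there were 15, or 6.94%, against 12% of all genes tested. The Zfp700 to Zfp999 genes of chromosome 2 numbered 13. Of these 9 were tested, 3 were called lower and 0 higher, and the median was -0.42. Over all genes tested 0.826% were called lower. The median share of 31-base stretches that recur in another gene was 71.8% for these 13 genes, against 8.62% for the 115 genes. Reads of the chromosome 2 genes may thus have been divided with other genes. The difference between the chromosome 2 genes and the 115 genes elsewhere was not tested.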

How the data were processed

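RNA was measured in 4 libraries, 2 per group. Per the submitters' processing notes, the authors quantified reads with Salmon against the mouse genome (GRCm38, mm10), and they deposited estimated counts per Ensembl gene, of which between 23.1% and 25.1% per library were not whole. For the annotation release and the strand setting, nothing is given in the sources used here. Reads shared by copies or overlapping genes are divided by Salmon's model.

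Here the estimated counts were rounded and tested with edgeR 4.0.16 in R 4.3.3: genes kept by filterByExpr at a minimum count of 10 (14050 genes), TMM scaling (factors 0.907 to 1.05), robust quasi-likelihood F test, two-sided, Benjamini-Hochberg adjustment over all tested genes, threshold 0.05. The procedure was tested on simulated data. A standard error is the log2 fold change divided by the square root of F. Alternatives were scaling by library size alone, DESeq2 1.42.0 without the filter on low counts, limma-voom (limma 3.58.1), no filter and a filter of 1 CPM. Further ones were a replicate block, leaving out each library, leaving out genes sharing over 50% of 31-mers, and a cluster gap of 500000 bases.

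Gene symbols, positions and shared 31-mers came from GENCODE M21, which gave a symbol to 34582 of the 34866 identifiers. The 115 genes, the gene lists and the naming rule were chosen with earlier results of these data known. Named genes were those past the threshold or at an unadjusted p under 0.05, the 10 most abundant per kilobase, the 6 largest changes each way at a mean of at least 1 CPM, the tested gene with the highest CPM in each cluster, and genes with a known role. Others were named beside these to describe shared sequence, motifs or neighbours, after their values were seen. Fingers (C, 2 to 5 residues, C, 12 residues, H, 3 to 5 residues, H) and the KRAB pattern were searched in proteins translated from the annotation, added after seeing the data.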

Additional observations from a re-analysis of the deposited data

How the results depend on the processing

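No zinc-finger gene of the 115 was called under library size alone, DESeq2, limma-voom, no filter, the 1 CPM filter, the replicate block or without genes sharing over 50% of 31-mers. Leaving out 1 library gave calls only without shControl replicate 2, with Zfp738 and Zfp953 as higher and Zfp740 as lower. Each such fit left a single library in a group, so its calls carry no spread within that group. The labels do not say that replicate numbers pair the libraries, and the deviations of same-numbered libraries correlated at -0.03 across genes. With the replicate block 0 were called, 6 had an unadjusted p under 0.05 and the median log2 fold change was -0.02. For this fit the share of all genes at that unadjusted p was not computed. The median of the tested genes ranged from -0.07 to 0.05 over the alternatives. Depth limits the low genes most, as most were below 10 CPM.

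Cluster medians moved as follows. With library size alone, which moved the median of all genes from -0.01 to 0.07, they were 0.088 (dispersed), 0.17 (chromosome 4), 0.31 and 0.11 (8a and 8b). DESeq2 gave 0.15 for chromosome 4 and 0.31 for chromosome 9, as did no filter for chromosome 9. The 1 CPM filter gave -0.032 and -0.25 for clusters 7b and 7c. Without genes sharing over 50% of 31-mers 7c was -0.24 and chromosome 10 was 0.0069. A gap of 500000 bases gave 0.38 for 7b. These changes follow the sets of genes left in each cluster for the filters and the gap. DESeq2 was run without the filter on low counts, so its sets of genes changed together with the method. For library size alone and for DESeq2 the cause was not tested.

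Leaving out 1 library, the medians ranged from -0.067 to 0.035 (dispersed), 0.050 to 0.15 (chromosome 4), -0.20 to 0.17 (chromosome 6), -0.12 to 0.032 (7a), -0.19 to 0.20 and 0.026 to 0.48 (7b and 7c), 0.055 to 0.30 (8a), -0.019 to 0.095 (8b), -0.12 to 0.23 (chromosome 9), -0.24 to 0.028 (chromosome 10), -0.17 to 0.55 (13a), -0.43 to -0.055 (17a) and -0.24 to 0.072 (17b). Direction changed under library size alone for Zfp992 (0.044), Zfp788 (0.047), Zfp946 (0.024), Zfp763 (0.013) and Zfp711 (0.058). It changed without 1 library for Zfp704 (-0.37 to 0.056), Zfp992 (-0.088 to 0.0069), Zfp993 (-0.018 to 0.16), Zfp932 (-0.069 to 0.12), Zfp746 (-0.062 to 0.36), Zfp787 (-0.011 to 0.12), Zfp850 (-1.09 to 0.012), Zfp788 (-0.17 to 0.10), Zfp703 (-0.46 to 0.66), Zfp961 (-0.019 to 0.095), Zfp830 (-0.17 to 0.29), Zfp708 (-0.18 to 1.14), Zfp738 (-0.16 to 0.63), Zfp946 (-0.18 to 0.067), Zfp763 (-0.41 to 0.24) and Zfp711 (-0.10 to 0.10). The cause was not tested.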
